A study of Mus musculus with 10 samples.

Results

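Glutathione transferases join the tripeptide glutathione to reactive molecules, and the transcription factor NRF2 (gene Nfe2l2) drives many of the genes that make and use glutathione. Their RNA was followed in cultured fetal mouse testes in which glycogen breakdown was inhibited. Members were all gene entries whose symbols name a soluble or membrane-bound glutathione transferase or a glutathione peroxidase, together with 10 single genes. The transferase families were alpha, kappa, mu, omega, pi, theta, zeta and Mgst. The single genes were Gclc, Gclm, Gss, Gsr, Nqo1, Hmox1, Txnrd1, Srxn1, Nfe2l2 and Keap1. These rules gave 45 of the 24470 entries of the count table. They comprise 26 glutathione transferases (5 alpha, 7 mu, 11 of other soluble families and 3 membrane-bound), 9 glutathione peroxidase entries, of which Gpx2-ps1 is a pseudogene, and the 10 single genes.

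RNA was sequenced from 10 testes of 5 C57BL/6 mouse embryos at E12.5, called M1 to M5 here. In every embryo the culture medium of 1 gonad held a glycogen phosphorylase inhibitor (GPI, CP-316819) at 75 µM, and that of the contralateral gonad held the vehicle, DMSO. Culture lasted 48 h with the mesonephros attached, which was removed before RNA extraction, so that each library holds the RNA of 1 whole gonad with all its cell types. The comparison is between GPI and vehicle gonads of the same embryo, 5 against 5.

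As background, the NRF2 protein is held in the cytoplasm and marked for degradation by KEAP1, and electrophiles or oxidants release it to bind antioxidant response elements near its target genes. Those targets include the enzymes that make glutathione, several glutathione transferases, NQO1, heme oxygenase and thioredoxin reductase. In the gonad, glutathione transferases of the alpha and mu families have been found in steroid-making cells and in Sertoli cells, and the alpha family also takes part in steroid hormone synthesis.

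The libraries held 10203679 to 15635322 counts. Members took between 0.209% and 0.279% of all counts with vehicle and between 0.295% and 0.473% with GPI, so every GPI library had a larger member share than every vehicle library. Gstm1 alone supplied 51.8% to 59.7% of the member counts with vehicle and 57.5% to 64.9% with GPI. Among the GPI libraries, that of M1 stood apart: over genes with enough counts, its chi-square per degree of freedom against the other GPI libraries ran from 21.7 to 27.8, whereas the others differed among themselves by 7.48 to 11. The calls of members and of every list below were therefore also made without M1. Among the vehicle libraries, that of M2 differed from the others by 13.01 to 21.18, and the others differed among themselves by 6.42 to 13.73.

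Of the 45 members, 35 passed the filter on low counts, and 12 of these were higher with GPI at an adjusted p under 0.05 (quasi-likelihood test of edgeR, Benjamini-Hochberg adjusted over 13941 genes, with gonads paired by mouse). This is 34.3% of the tested members, beside 11.1% of all tested genes called higher. The members were chosen with earlier results of these data known, so this share is a description and not a test of the set. No member was called lower (0 of 35, beside 11.9% of all genes), and the number lower was 0 also at an unadjusted p under 0.05 in edgeR, with DESeq2 and with limma-voom. Over both directions, 22.9% of all tested genes were called. The median log2 fold change was 0.41 over the tested members and 0.02 over all tested genes. In 7 members (Gsta2, Gsta4, Gstm1, Gstt2, Mgst1, Gclc and Keap1) every GPI library lay above every vehicle library, beside 7.07% of all tested genes. Without M1, the same 12 members were called. With M4 left out, 8 remained, and Gsta3, Gstt2, Gstt3 and Keap1 no longer passed. In RNA from whole gonads, a change in the number of cells of a type and a change in RNA per cell cannot be told apart.

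**Figure D1:**
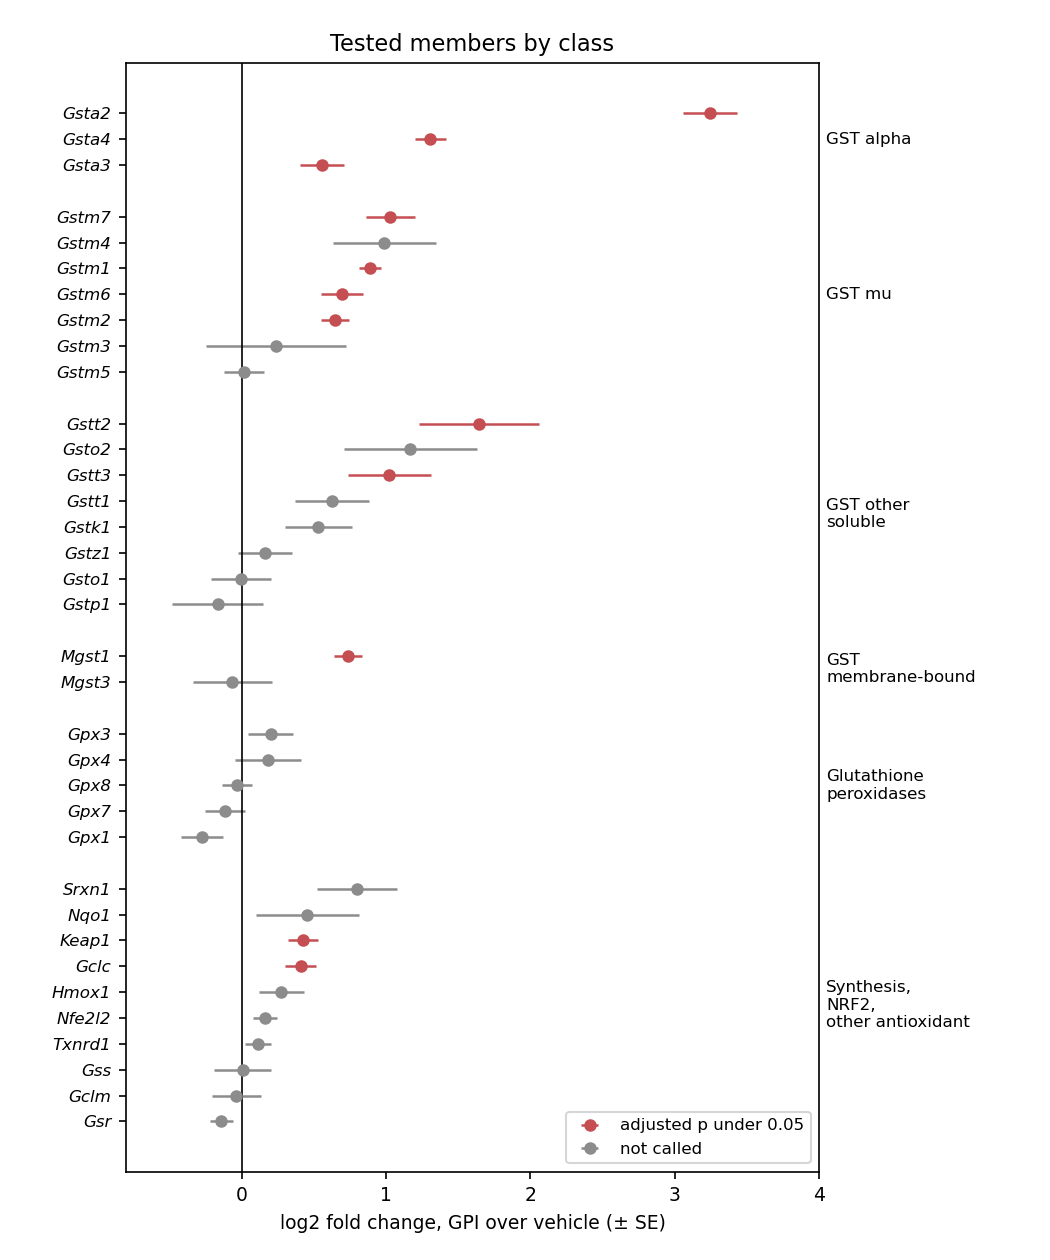
Log2 fold change of GPI over vehicle for the 35 tested members, ordered by family, with bars for the standard error (n = 5 mice); red points passed an adjusted p under 0.05 in edgeR. The 12 called members all lie to the right of 0, from 0.41 (Gclc) to 3.24 (Gsta2), and the peroxidases lie close to 0.

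Members not tested were Gsta1, Gsta5, Gstp2, Gstp3, Gstt4, Mgst2, Gpx2, Gpx5, Gpx6 and Gpx2-ps1. Gpx2, Gpx5, Gpx6 and Gstp3 had 0 counts in all 10 libraries. The other 6 had group means of at most 11 normalized counts, which are counts scaled to the mean effective library size of 12320317.

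Some of these genes are so alike that read pairs cannot always be placed. Counting by default leaves out pairs that map to several places, so the counts of such genes are uncertain. In the alpha family, the coding sequences of Gsta2 and Gsta5 share 98.5% of aligned bases, those of Gsta1 and Gsta2 97.6% and those of Gsta1 and Gsta5 97%. The first 120 coding bases of these 3 genes and of the pi pair Gstp1 and Gstp2 are shown for how little separates them, with the bases that differ within a set in capitals. Gsta1 lies at chr9:78230669-78242683 (plus), Gsta5 at chr9:78289928-78305525 (plus), Gsta2 at chr9:78331020-78347145 (minus), Gstp1 at chr19:4035411-4037912 (minus) and Gstp2 at chr19:4040288-4042221 (minus) in mm10, with the strand in brackets. The sequences, from GENCODE M21 transcripts, read in the sense of each gene.
Gsta1: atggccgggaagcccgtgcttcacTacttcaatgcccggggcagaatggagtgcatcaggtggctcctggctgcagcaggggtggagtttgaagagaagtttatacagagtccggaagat
Gsta2: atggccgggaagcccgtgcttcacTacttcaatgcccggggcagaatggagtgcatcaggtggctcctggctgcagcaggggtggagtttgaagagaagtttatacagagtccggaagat
Gsta5: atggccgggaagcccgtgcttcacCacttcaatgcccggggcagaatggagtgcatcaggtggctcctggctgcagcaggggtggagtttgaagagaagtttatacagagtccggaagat
Gstp1: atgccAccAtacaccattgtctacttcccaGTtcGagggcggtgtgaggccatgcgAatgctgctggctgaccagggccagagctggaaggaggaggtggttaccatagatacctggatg
Gstp2: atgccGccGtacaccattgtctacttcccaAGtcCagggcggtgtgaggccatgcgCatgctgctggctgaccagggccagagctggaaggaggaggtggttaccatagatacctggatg

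Within those 120 bases the alpha set differed at 1 position and the pi pair at 6. Of all windows of read length in the longest coding transcript, 73.5% of Gsta1, 26.7% of Gsta2 and 18.9% of Gsta5 also occur in a transcript of another gene. The share was 49.1% for Gstp2, 41.6% for Gstp1, 36.7% for Gpx4 (with the pseudogene Gpx4-ps2) and 21.7% for Gstt3. It was at most 3.5% in every other member with a transcript, and 0% in Gstm1, Gstm2, Gstm6, Gstm7, Gsta3, Gsta4, Gstt2, Mgst1 and Gclc. Summing the near-identical entries (Gsta1, Gsta2 and Gsta5, and Gstp1 with Gstp2) before the test left the 12 calls as they were. The entries added to Gsta2 and Gstp1 held few counts, and summing does not bring back pairs that were left out. That fit could therefore hardly change a call.

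All 3 tested members of the alpha family rose, beside 11.1% of all tested genes called higher. Their median log2 fold change of 1.31 was the highest of the families grouped here. Gsta2 encodes a transferase that handles lipid peroxides. In M1 to M5 it stood at 37.7, 28.6, 93.8, 41.8 and 82.3 normalized counts with vehicle and at 443, 444, 694, 548 and 472 with GPI. The groups were far apart: the lowest GPI library was several times the highest vehicle library. Means were 56.8 ± 29.2 and 520.1 ± 106 normalized counts (SD, n = 5). The log2 fold change was 3.24 ± 0.19 (SE, 9.48-fold, 95% interval 2.84 to 3.65 on the log2 scale), higher in 5 of 5 mice, with an edgeR adjusted p of 6.42e-08. Since part of its sequence is shared, its counts are those of the pairs that could be placed.

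Gsta4 encodes the alpha transferase that conjugates the lipid aldehyde hydroxynonenal, and its transcript shares no window with another gene. Its vehicle gonads gave 746, 968, 1042, 939 and 1312 normalized counts in M1 to M5, and its GPI gonads 2171, 2182, 2449, 3101 and 2418. Again no vehicle library reached any GPI library, and M5, the highest with vehicle, had the smallest ratio. Gsta4 rose by 1.31 ± 0.11 on the log2 scale (SE, 2.48-fold, 5 of 5 mice, edgeR adjusted p = 1.26e-06).

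Gsta3, whose human counterpart isomerizes steroid hormone precursors, stood at 134, 87.1, 107, 150.4 and 89.9 normalized counts with vehicle and 159, 115, 210.1, 206 and 147 with GPI in M1 to M5. Each mouse had more with GPI, but the groups overlapped. The log2 fold change was 0.56 ± 0.15 (SE, edgeR adjusted p = 0.0185). This call depended on single mice: it was lost without M3 (log2 0.44, edgeR adjusted p = 0.12), without M4 (log2 0.58, edgeR adjusted p = 0.0507) and without M5 (log2 0.52, edgeR adjusted p = 0.0587), and in the fit without the mouse block (edgeR adjusted p = 0.0563). Untested Gsta5 had at most 6.31 normalized counts in a GPI library and Gsta1 at most 4.21.

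The mu family lies in 1 cluster on chromosome 3, from Gstm5 (chr3:107895854-107898685, plus strand) through Gstm7, Gstm6, Gstm3, Gstm2 and Gstm1 to Gstm4 (chr3:108040408-108044859, minus strand). Of its 7 members, all tested, 4 rose and none fell, beside 11.1% of all tested genes called higher and 11.9% called lower. The median log2 fold change was 0.70. Gstm1, the most abundant member, encodes a broad detoxifying enzyme. With vehicle it gave 13976, 15760, 16623, 20248 and 16126 normalized counts in M1 to M5, and with GPI 20934, 32904, 34024, 35882 and 31190. The GPI gonad of M1 was well below the other 4 GPI gonads, yet still above the highest vehicle gonad. Gstm1 rose 1.86-fold, by 0.89 ± 0.08 on the log2 scale (SE, 5 of 5 mice, edgeR adjusted p = 1.79e-06).

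Gstm2 stood at 1352, 2403, 1538, 2095 and 1950 normalized counts with vehicle and 1763, 2904, 2851, 4083 and 3208 with GPI. Gstm6 stood at 840.4, 2125, 1187, 1290 and 1342 with vehicle and 1036, 2122, 2285, 2869 and 2823 with GPI. Gstm7 stood at 494, 1131, 549, 639 and 709 with vehicle and 571, 1601, 1456, 1947 and 1844 with GPI. In all 3 the GPI gonad of M1 was the lowest of its group and fell within the vehicle range, so that the groups overlapped. M2 had the highest vehicle gonad in each, and its pair hardly differed for Gstm6. The log2 fold changes were 0.65 ± 0.10 for Gstm2 (5 of 5 mice, edgeR adjusted p = 0.00031), 0.70 ± 0.14 for Gstm6 (4 of 5 mice, edgeR adjusted p = 0.00298) and 1.03 ± 0.17 for Gstm7 (5 of 5 mice, edgeR adjusted p = 0.000569). Each of these calls held in every alternative fit that was run.

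Gstm4 was low, with 16.1 ± 4.91 normalized counts with vehicle and 31.9 ± 8.29 with GPI (SD, n = 5). It was higher in 5 of 5 mice, by 0.99 ± 0.36 (log2, SE), but did not pass (edgeR adjusted p = 0.064); it did with at least 10 counts required in every library (edgeR adjusted p = 0.0337), without the mouse block (0.0353) and without M2 (log2 1.21, edgeR adjusted p = 0.039). Gstm3 and Gstm5 were not called, with log2 fold changes of 0.24 ± 0.49 and 0.02 ± 0.14. The sign of Gstm5 turned when libraries were scaled by total counts only, and that of Gstm3 in the fit without the mouse block. Gstm5 also overlaps an antisense transcript, and counting without regard to strand cannot separate them.

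**Figure D2:**
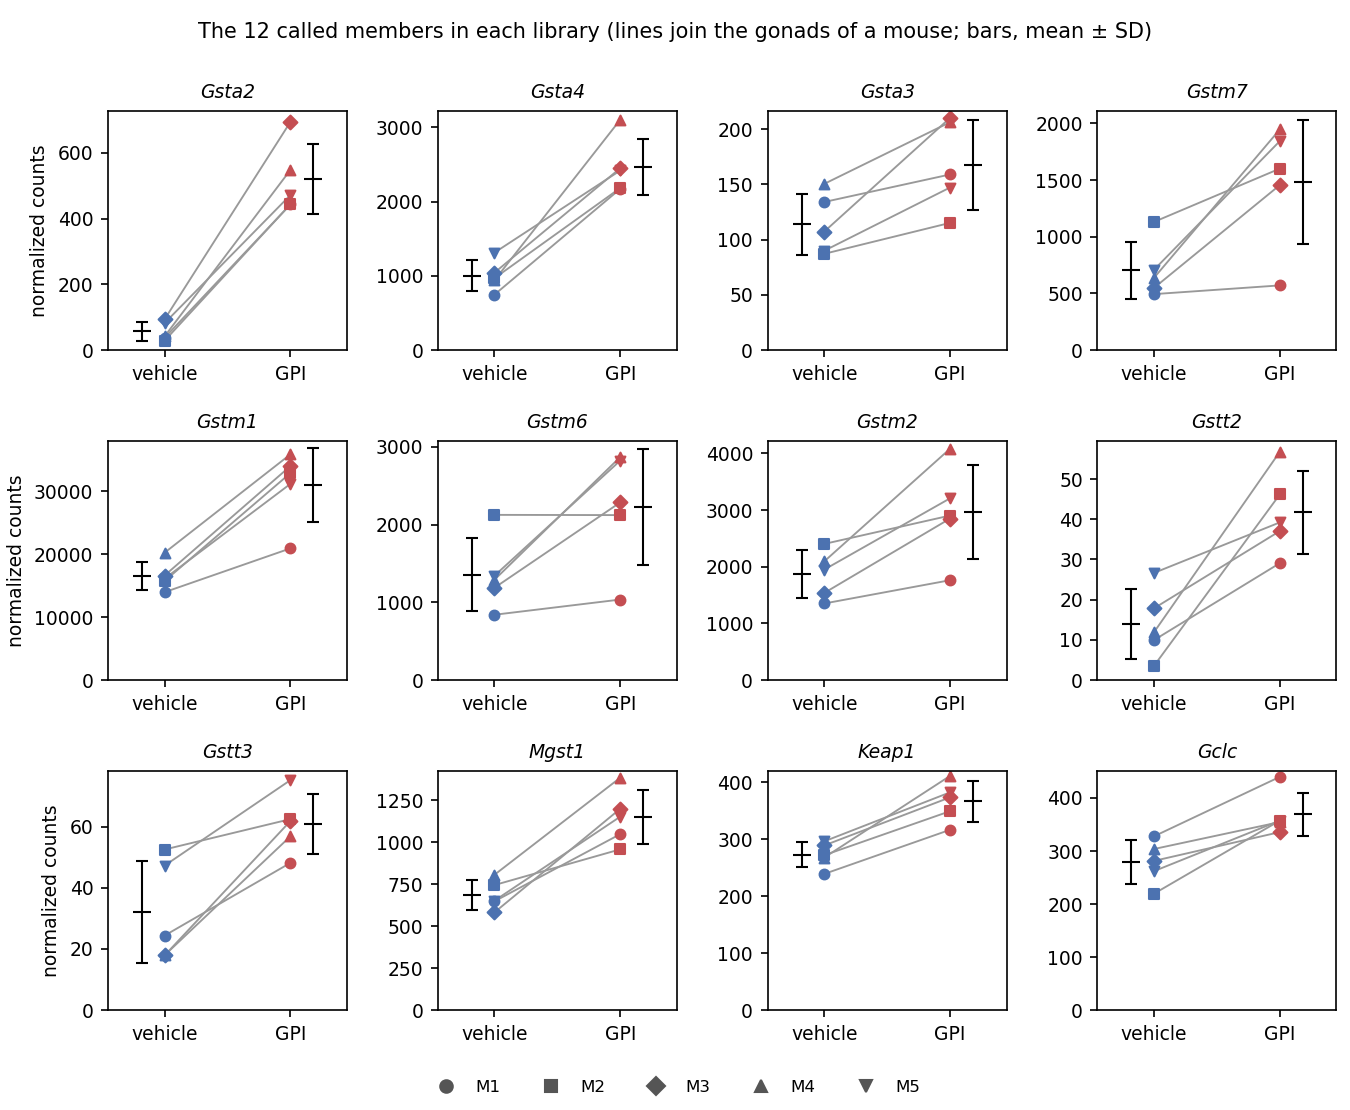
Normalized counts (vertical axis, from 0) of the 12 called members in each library, vehicle in blue and GPI in red; marker shapes stand for mice M1 to M5, lines join the gonads of a mouse, and bars give the mean ± SD (n = 5). Lines slope upward in 5 of 5 mice for every called member except Gstm6, where M2 was level, and the GPI gonad of M1 is the lowest of its group in all of them except Gsta3, Mgst1 and Gclc.

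Among the other soluble families, 2 of 8 tested members rose, beside 11.1% of all tested genes, from which 2 of 8 differs little. Both belong to the theta family, which lies in a cluster on chromosome 10. The median log2 fold change of the 8 was 0.58. Theta transferases act on small halogenated compounds, among others. Gstt2 had 9.97, 3.58, 17.9, 12 and 26.7 normalized counts with vehicle and 29.1, 46.2, 37.1, 56.8 and 39.2 with GPI, with no overlap. Gstt3 had 24.4, 52.5, 17.9, 17.9 and 47.2 with vehicle and 48.1, 62.4, 61.8, 56.8 and 75.2 with GPI, and there the GPI gonad of M1 fell below the vehicle gonad of M2. At these low counts the log2 fold changes were 1.65 ± 0.42 for Gstt2 (SE, 5 of 5 mice, edgeR adjusted p = 0.0107) and 1.02 ± 0.29 for Gstt3 (5 of 5 mice, edgeR adjusted p = 0.0198). Without M4, neither passed (Gstt2 log2 1.49, edgeR adjusted p = 0.0553; Gstt3 log2 0.88, edgeR adjusted p = 0.0839), and Gstt3 did not pass without M3 (log2 0.84, edgeR adjusted p = 0.0956). Gstt2 was not tested when 10 counts were required in every library.

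The 6 other tested soluble members (Gstt1, Gstk1, Gsto1, Gsto2, Gstp1 and Gstz1) were not called, with log2 fold changes from -0.17 (Gstp1) to 1.17 (Gsto2). Gsto1 lay near 0, and its sign turned in the fit without the mouse block. Gsto2 had 9.53 ± 3.14 normalized counts with vehicle and 23.3 ± 11.3 with GPI (SD, n = 5), and its edgeR adjusted p was 0.0877, or 0.0367 without the mouse block. Gstz1 overlaps Gm6566 and, over fewer bases, Pomt2, both on the other strand.

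Mgst1, a membrane-bound transferase of the endoplasmic reticulum and mitochondria that also reduces lipid peroxides, had 648, 745, 582, 806 and 651 normalized counts with vehicle in M1 to M5 and 1048, 958, 1199, 1384 and 1152 with GPI. Every GPI gonad was above every vehicle gonad, and M2 had the smallest ratio. Mgst1 rose by 0.74 ± 0.10 on the log2 scale (SE, 1.67-fold, 5 of 5 mice, edgeR adjusted p = 7.93e-05). Mgst3 was at 43.8 ± 11.9 with vehicle and 41.7 ± 9.64 with GPI and was not called.

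**Figure D3:**
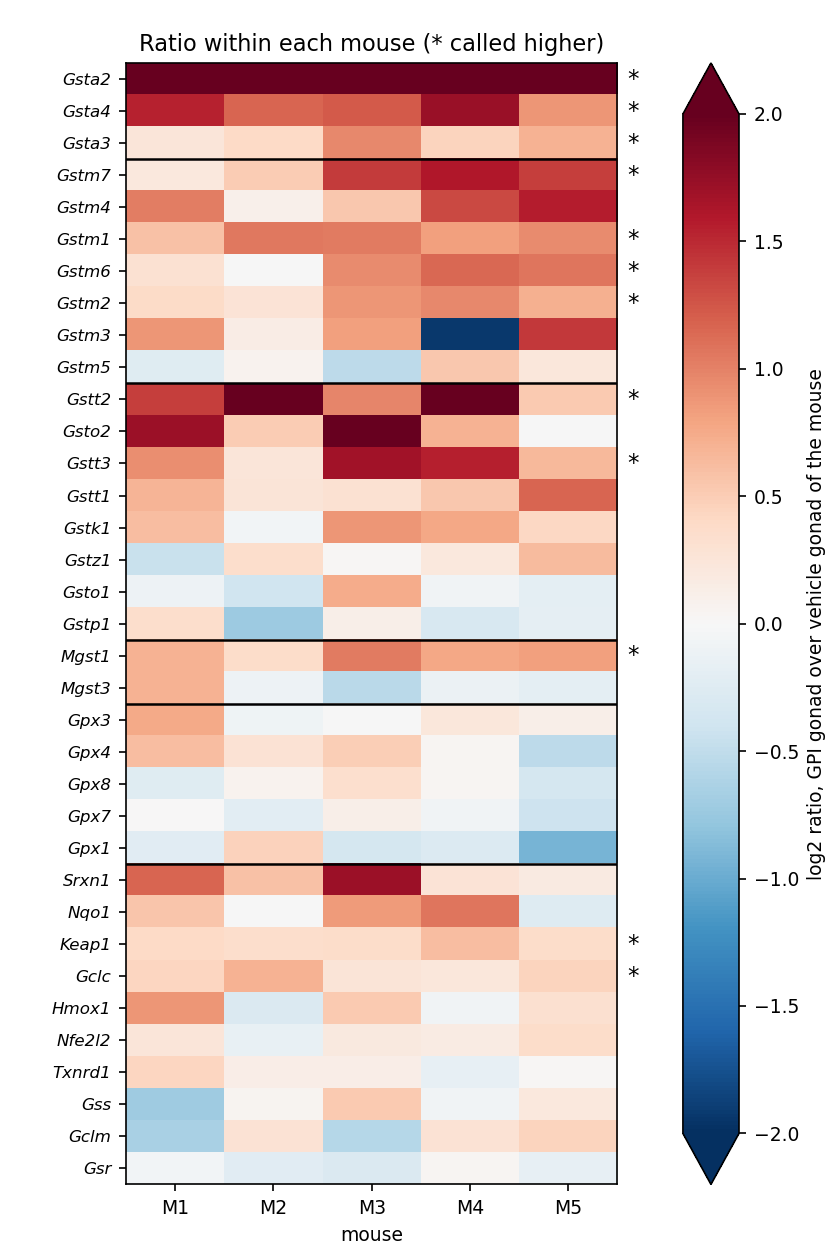
Log2 ratio of the GPI gonad over the vehicle gonad in each mouse (columns) for the 35 tested members (top to bottom by family, with lines between families); the colour scale stops at 2 and -2, and a star marks called members. The upper blocks, the alpha and mu transferases, are mostly red in all 5 mice, while the peroxidase block is mixed in sign.

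Over all 20 tested glutathione transferases, 10 rose and none fell, beside 11.1% of all tested genes called higher and 11.9% called lower. Their median log2 fold change was 0.67, and 17 had a positive value, beside 7316 of all 13941 tested genes. Levels were also summed per family in each library. In M1 to M5 the alpha family summed to 918, 1083, 1244, 1134 and 1484 normalized counts with vehicle and 2777, 2742, 3357, 3865 and 3038 with GPI, a ratio of means of 2.69. The mu family summed to 17110, 21810, 20410, 24730 and 20510 with vehicle and 24710, 39940, 41020, 45350 and 39570 with GPI, a ratio of 1.82. The alpha groups did not overlap. In the mu family, the GPI gonad of M1 was about level with the vehicle gonad of M4.

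Many glutathione peroxidases use glutathione to reduce peroxides. Of 5 tested (Gpx1, Gpx3, Gpx4, Gpx7 and Gpx8), 0 were called in edgeR, beside 22.9% of all tested genes, 0 passed at an unadjusted p under 0.05, and DESeq2 and limma-voom also called 0; the median log2 fold change was -0.03. With so few genes a count of 0 differs little from that share, and peroxidases and transferases were not tested against each other. Gpx1, the main cytosolic enzyme, had 951, 502, 972, 1098 and 1042 normalized counts with vehicle and 810.3, 693, 757, 905 and 545 with GPI. Its groups overlapped through the low vehicle gonad of M2 alone, and 4 of 5 mice had less with GPI. The log2 fold change was -0.27 ± 0.14 (SE, edgeR adjusted p = 0.207), and without M2 Gpx1 was called lower (log2 -0.45, edgeR adjusted p = 0.0182). Without M5 the decrease was smaller (log2 -0.108, edgeR adjusted p = 0.629). Gpx8, an enzyme of the endoplasmic reticulum, had 767 ± 82.5 normalized counts with vehicle and 755 ± 115 with GPI (log2 fold change -0.03 ± 0.10); it overlaps Cdc20b on the other strand. The other 3 ran from -0.12 (Gpx7) to 0.20 (Gpx3) on the log2 scale, and Gpx4 shares sequence with a pseudogene. In M1 to M5 the family summed to 2031, 1579, 1985, 2300 and 2333 normalized counts with vehicle and 1893, 1779, 1978, 2143 and 1594 with GPI.

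Of the genes of glutathione synthesis and recycling, Gclc was called higher, and Gclm, Gss and Gsr were not called. Differences in response between them were not tested. Gclc encodes the catalytic subunit of glutamate-cysteine ligase, the rate-limiting enzyme, and stood at 328, 219.6, 281, 304 and 262 normalized counts with vehicle and 439.9, 358, 336, 355 and 357 with GPI. Its groups did not overlap, and M1 had the most in both. Gclc rose by 0.41 ± 0.11 (log2, SE, 1.33-fold, 5 of 5 mice, edgeR adjusted p = 0.0146). Gclm, the modifier subunit of the same ligase, had 295, 223, 299, 200.2 and 185 with vehicle and 188, 272, 201, 245 and 254 with GPI. It was lower with GPI in M1 and M3 and higher in M2, M4 and M5, and was not called (log2 -0.04 ± 0.17, edgeR adjusted p = 0.915). Gss, which adds glycine to complete glutathione, had 95.8 ± 13.3 with vehicle and 97 ± 19.7 with GPI, a log2 fold change of 0.01 ± 0.20 whose sign turned under scaling by total counts. Gsr, which returns oxidized glutathione to its reduced form, had 1192 ± 103 and 1080 ± 30.4, with 4 of 5 mice lower (log2 -0.14 ± 0.08, edgeR adjusted p = 0.234).

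Of the NRF2 pair, the repressor was called and the activator was not. Keap1 stood at 239, 272, 289, 268 and 296 normalized counts with vehicle and 317, 349, 374, 411 and 383 with GPI, without overlap. It rose by 0.42 ± 0.10 (log2, SE, 1.34-fold, 5 of 5 mice, edgeR adjusted p = 0.00806), and narrowly failed without M4 (log2 0.38, edgeR adjusted p = 0.0509). Nfe2l2 stood at 1262, 1436, 1244, 1151 and 987 with vehicle and 1498, 1294, 1423, 1290 and 1274 with GPI. Its groups overlapped, and M2 went against the other 4 mice. The log2 fold change was 0.16 ± 0.08 (edgeR adjusted p = 0.191), and without M2 it passed (log2 0.24, edgeR adjusted p = 0.038). These are RNA levels; the amount and place of the NRF2 protein were not measured in these libraries.

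Nqo1, Hmox1, Srxn1 and Txnrd1, known NRF2 targets outside glutathione synthesis and conjugation, did not pass. Nqo1, a quinone reductase, was low, at 17.7, 31, 20.1, 7.97 and 21.3 normalized counts with vehicle and 26.9, 30.8, 38, 18.9 and 17.4 with GPI (log2 0.46 ± 0.36, edgeR adjusted p = 0.412). Hmox1, which breaks down heme, had 258, 282, 191, 259 and 207 with vehicle and 478, 230.2, 275, 246 and 257 with GPI, where M1 alone was far above the rest (log2 0.28 ± 0.16, edgeR adjusted p = 0.246). Without M1 the log2 fold change of Hmox1 was 0.1 (edgeR adjusted p = 0.712). Both genes overlapped between the groups. Srxn1, which repairs overoxidized peroxiredoxins, had 47.6, 33.4, 21.2, 53.8 and 34.3 with vehicle and 109.7, 51.1, 74.2, 65.2 and 39.2 with GPI. It was higher in 5 of 5 mice, yet the groups overlapped and it narrowly missed (log2 0.80 ± 0.28, edgeR adjusted p = 0.0528). Without M5 it passed (log2 0.95, edgeR adjusted p = 0.0459); over the alternatives its adjusted p ran from 0.033 to 0.227. Txnrd1, cytosolic thioredoxin reductase, had 968 ± 89.5 with vehicle and 1052 ± 135 with GPI (log2 0.12 ± 0.09, edgeR adjusted p = 0.41). Its log2 fold change without M1 was 0.02 (edgeR adjusted p = 0.911). Txnrd1 shares bases with Eid3 on the same strand. Of the 10 single genes 2 rose and none fell, near the 11.1% and 11.9% of all tested genes for so few, with a median of 0.22; in edgeR 0 were lower at an unadjusted p under 0.05, and DESeq2 and limma-voom called 0 lower.

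Levels of different genes can be compared only per length. As mean normalized counts per kb of the longest coding transcript, Gstm1 was highest both with vehicle (12840) and with GPI (24040). With vehicle it was followed by Gstm2 (1755 per kb), Gstm6 (1151), Gsta4 (1025), Gpx1 (852) and Gpx8 (736). With GPI the order was Gstm2 (2784 per kb), Gsta4 (2522), Gstm6 (1889), Gstm7 (1078) and Mgst1 (984). Gsta2 went from 65.3 to 598 per kb and so from a level near that of Gsta3 (78.1) to one near Gpx1 (692 with GPI). Shared windows made up 26.7% of Gsta2 and 0% of Gsta3 and Gpx1, and pairs that map to several places are left out. The levels per kb of Gsta2 and of other members with shared sequence may therefore be too low. Differences in level between genes were not tested.

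Promoter windows (250 bases before to 50 after a start; RefSeq, GRCm38.p6) were matched for 39 members. Entries were missing for Gsta4, Gclc, Gsr, Gstt2, Hmox1 and Gpx2-ps1. The core of the antioxidant response element, TGACNNNGC, was searched on both strands. It occurred in 8 of 39 members (Gclm, Gsta3, Gstm5, Gstm7, Mgst1, Nfe2l2, Srxn1 and Txnrd1), beside 14% of 27025 genes and 12.4% of 32851 windows. Of the 8, Gsta3, Gstm7 and Mgst1 were called higher and 5 were not called. Among all tested members 34.3% were called higher, a share from which these 8 differ little. The motif CAAGGTCA of NR5A1, a factor of steroid-making genes, occurred in 0 of 39 members and in 1.76% of all genes. The surroundings of the matches in Gsta3, which rose, and in Gclm and Txnrd1, which were not called, are shown because they lie outside annotated exons; capitals mark the match. They are at chr1:21240439-21240497 (plus strand, match starting 121 bases before the start), chr3:122245398-122245456 (plus, 134 before) and chr10:82859089-82859147 (plus, 92 before).
Gsta3: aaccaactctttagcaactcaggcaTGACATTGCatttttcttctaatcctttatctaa
Gclm: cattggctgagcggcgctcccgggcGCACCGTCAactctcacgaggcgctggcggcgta
Txnrd1: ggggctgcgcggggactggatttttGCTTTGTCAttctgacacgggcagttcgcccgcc

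In Gsta3 the match reads on the strand of the gene, and in Gclm and Txnrd1 on the opposite strand. A match describes letters and says nothing about binding.

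Other genes of the pathway were taken as lists, to be read beside the 11.1% of all tested genes called higher and the 11.9% called lower. The lists were chosen with earlier results of these data known, so their shares are a description and not a test of the lists. Without M1, every list of the pathway kept its counts, with Ggct lost and Chac2 gained among the glutathione supply genes. Of 19 tested further NRF2 targets, 9 rose and 1 fell, with a median log2 fold change of 0.37. In its pentose phosphate branch, G6pdx rose by 0.61 ± 0.09 (SE, 5 of 5 mice, edgeR adjusted p = 0.000183). Pgd (0.32 ± 0.14), Taldo1 (0.17 ± 0.15) and Tkt (-0.14 ± 0.11) were not called. The smallest p-values belonged to Me1, malic enzyme (1.07 ± 0.10, 5 of 5 mice, edgeR adjusted p = 3.8e-06), the cystine carrier Slc7a11 (1.99 ± 0.21, 5 of 5 mice, edgeR adjusted p = 1.19e-05) and the epoxide hydrolase Ephx1 (2.81 ± 0.31, 5 of 5 mice, edgeR adjusted p = 1.58e-05). Ephx1 went from 23 ± 14.5 to 159.6 ± 53.9 normalized counts and Slc7a11 from 62.8 ± 31.1 to 240.2 ± 74.2 (SD, n = 5). The exporter Abcc4 was the 1 that fell (-1.19 ± 0.31, 4 of 5 mice lower, edgeR adjusted p = 0.0121).

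NRF2 regulators and partners moved both ways: 3 of 10 rose and 1 fell (median 0.02). Cul3 (-0.06 ± 0.07) and Rbx1 (-0.16 ± 0.10), which with KEAP1 form the ligase that marks NRF2, were not called. Of the small MAF partners, Maff fell by 1.44 (SE 0.24, lower in 5 of 5 mice, edgeR adjusted p = 0.000522) and Mafk rose by 0.52 ± 0.13 (5 of 5 mice, edgeR adjusted p = 0.00876). Fbxw7 rose by 0.53 ± 0.10 (5 of 5 mice, edgeR adjusted p = 0.00114).

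Glutathione supply and turnover, a list that shares Slc7a11 and Abcc1 with the NRF2 targets, had 5 of 11 tested genes higher and 1 lower (median 0.42). Slc3a2, the partner chain of SLC7A11, rose by 0.66 ± 0.12 (5 of 5 mice, edgeR adjusted p = 0.00129). The aminopeptidase Anpep fell by 1.31 (SE 0.14, lower in 5 of 5 mice, edgeR adjusted p = 1.77e-05). With DESeq2, 4 were higher and 1 lower, and with limma-voom 6 were higher and 1 lower.

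NADPH feeds glutathione reductase. Of 10 genes for enzymes that make it, 5 rose and 0 fell (0 lower also at an unadjusted p under 0.05 in edgeR, with DESeq2 and with limma-voom), with a median of 0.46; G6pdx, Pgd and Me1 also belong to the NRF2 targets. Cytosolic isocitrate dehydrogenase, Idh1, rose by 0.92 ± 0.08 (5 of 5 mice, edgeR adjusted p = 2.35e-06) and the mitochondrial folate enzyme Mthfd2 by 1.38 ± 0.16 (5 of 5 mice, edgeR adjusted p = 3.03e-05).

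Thioredoxin, peroxiredoxin and superoxide enzymes had 1 of 23 genes higher and 4 lower, beside 11.1% and 11.9% of all tested genes, with a median of -0.04. Txn1 (0.09 ± 0.08) and Txn2 (0.17 ± 0.15) were not called. The methionine sulfoxide reductase Msrb3 fell by 1.28 (SE 0.10, edgeR adjusted p = 5.91e-07) and Prdx4 by 0.50 (SE 0.10, edgeR adjusted p = 0.00195), each lower in 5 of 5 mice, while mitochondrial Sod2 rose by 0.44 ± 0.09 (5 of 5 mice, edgeR adjusted p = 0.00245). The difference in response between these lists and the transferases was not tested.

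Selenoprotein synthesis, on which several peroxidases and thioredoxin reductases depend, had 1 of 9 genes higher and 1 lower (median -0.06), shares close to the 11.1% and 11.9% of all tested genes. Selenop, a selenium carrier, fell by 0.87 (SE 0.09, lower in 5 of 5 mice, edgeR adjusted p = 6.77e-06), and its receptor Lrp8 rose by 0.45 ± 0.09 (5 of 5 mice, edgeR adjusted p = 0.00156). Sephs1 (-0.12 ± 0.12), Sephs2 (-0.13 ± 0.13) and Pstk (0.18 ± 0.16) were not called. The aryl hydrocarbon receptor also drives some transferases. Of 3 tested targets, 1 fell and 0 rose (1 was higher at an unadjusted p under 0.05 in edgeR, and 0 with DESeq2 or limma-voom; median 0.03). Cyp1b1 fell by 1.53 (SE 0.14, lower in 5 of 5 mice, edgeR adjusted p = 3.38e-06), whereas Ahrr (1.22 ± 0.43, edgeR adjusted p = 0.0568) and Tiparp (0.03 ± 0.07, edgeR adjusted p = 0.833) were not called. Cyp1a1 was too low to test and Cyp1a2 had 0 counts.

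**Figure D4:**
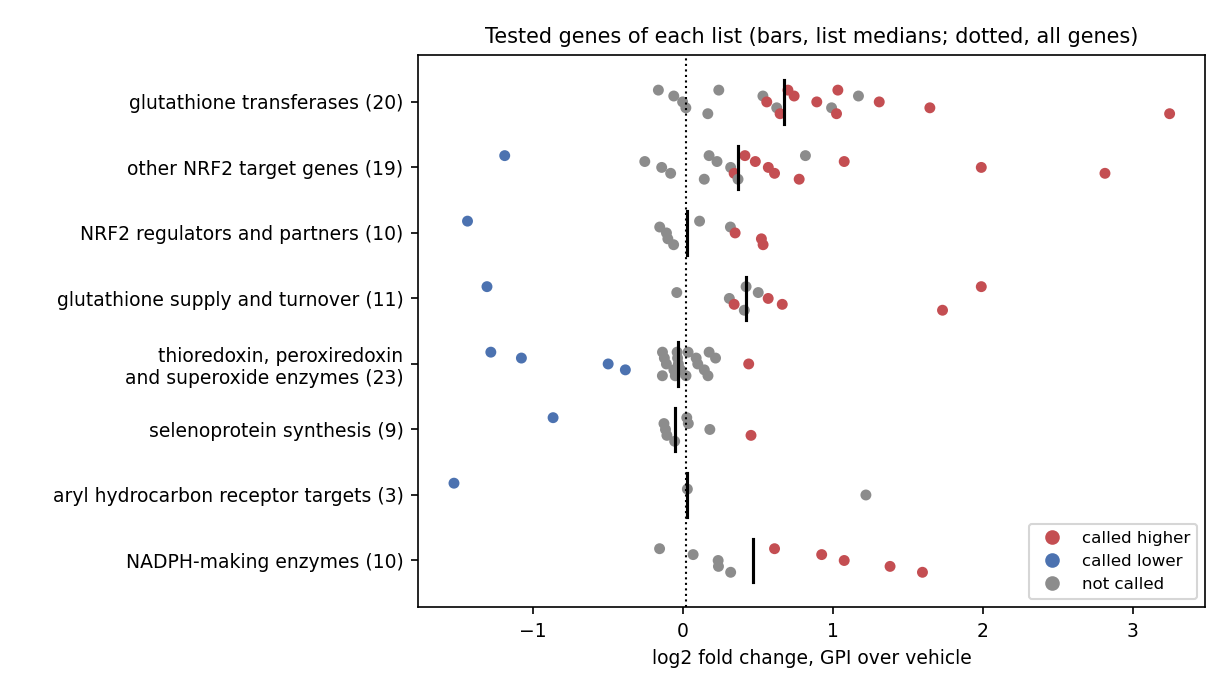
Log2 fold change of GPI over vehicle (horizontal axis) for the tested genes of each list (number in brackets); red points were called higher, blue lower and grey not called, a bar gives the list's median and the dotted line the median of all genes (0.02). The medians of the transferases (0.67), NADPH-making enzymes (0.46) and glutathione supply genes (0.42) lie to the right of the dotted line, and that of the thioredoxin list (-0.04) just to its left.

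Marker genes of the cell types of the gonad were counted in the same libraries, and their calls too are to be read beside 11.1% of all tested genes higher and 11.9% lower. These lists, too, were chosen with earlier results of these data known, so their shares are a description. Without M1 no call in these lists was lost, and the germ cell gene Pou5f1, not tested with all mice, was also called lower. Some medians moved without M1: pre-granulosa from -0.36 to -0.60, adrenal cortex from 0.36 to 0.58 and fetal Leydig cell from 1.08 to 0.72. Those of germ cell markers went from -4.76 to -5.17, erythroid from -3.84 to -4.22 and mesonephric tubule from -1.46 to -1.12. Fetal Leydig cell markers rose in 5 of 7 tested genes and fell in none (0 lower at an unadjusted p under 0.05 in edgeR, and by DESeq2 or limma-voom; median log2 fold change 1.08). The 8 markers summed to 1508, 2914, 4258, 2211 and 5562 normalized counts with vehicle in M1 to M5 and to 9920, 10430, 16120, 18440 and 13170 with GPI. Hsd3b1 held the most counts with vehicle and Cyp11a1 with GPI. Every GPI gonad was above every vehicle gonad, and no marker was at 0 throughout. Sertoli cell markers rose in 4 of 7 genes and fell in none (0 lower by the same tests; median 0.53), with sums of 2266, 3107, 2325, 2775 and 2999 with vehicle and 2785, 3994, 3915, 4830 and 3827 with GPI. Sox9 held the most counts. There the groups overlapped through the GPI gonad of M1.

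Markers of 4 other cell types fell. The gene named with each held the most counts with vehicle. Germ cell markers fell in 4 of 4 tested genes (median -4.76; Dazl; 5 fell with DESeq2), from sums of 949, 2041, 1209, 1661 and 630.1 normalized counts to 127, 101, 27.6, 33.7 and 97. Endothelial markers fell in 6 of 6 (median -3.28; Cdh5), from 7082, 7423, 6633, 7759 and 6835 to 772, 937, 628, 517 and 649. In both, no GPI gonad came near a vehicle gonad. Macrophage markers fell in 5 of 6 (median -2.03; Ptprc), from 734, 442, 530.4, 519 and 555 to 272, 247, 226, 152 and 153. Erythroid markers fell in 7 of 7 (median -3.84; Hbb-bs), from 673, 1261, 2424, 2568 and 1961 to 263, 214, 193, 163 and 364. None of the genes in these 4 lists was higher, also at an unadjusted p under 0.05 in edgeR and with DESeq2 or limma-voom (0 each).

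Interstitial progenitor markers had 1 of 4 higher and 2 lower (median -0.24; most counts in Pdgfra), with sums of 11480, 13350, 13230, 11110 and 13090 normalized counts with vehicle and 12920, 13280, 12370, 11470 and 14080 with GPI. Coelomic epithelium markers had 1 of 4 higher and 0 lower (0 lower by every test named; median 0.13; most counts in Lhx9), with 1864, 2237, 2334, 2077 and 1713 and 2093, 2267, 2344, 1961 and 2314. In both lists the groups overlapped widely. Pre-granulosa markers had 1 of 4 lower, Wnt4, which also held the most counts (median -0.36), with sums of 1688, 1757, 1677, 1509 and 1341 with vehicle and 1351, 1077, 1082, 811 and 1171 with GPI. Mesonephric tubule markers, with the most counts in Pax8, had 1 of 2 tested genes lower (Cdh1; median -1.46), with sums of 961, 179, 504, 158 and 104 and 188, 319, 125, 112 and 107, and the vehicle gonad of M1 stood out as high. Without M1, the log2 fold change was -0.01 for Pax8 (edgeR adjusted p = 0.983) and -2.23 for Cdh1 (edgeR adjusted p = 0.00236). In these last 2 lists, 0 genes were higher by every test named. Adrenal cortex markers hold Mc2r, shared with the Leydig list, as their 1 tested gene (0 called by any of the tests; log2 0.36 ± 0.30); their sums were 49.8, 37, 45.8, 34.9 and 40.4 with vehicle and 35.8, 36.5, 89.4, 78.9 and 43.6 with GPI, nearly all from Mc2r, and Cyp21a1 and Cyp11b2 were at 0 in all 10 libraries. What part these marker changes have in the increases of the transferases was not tested.

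**Figure D5:**
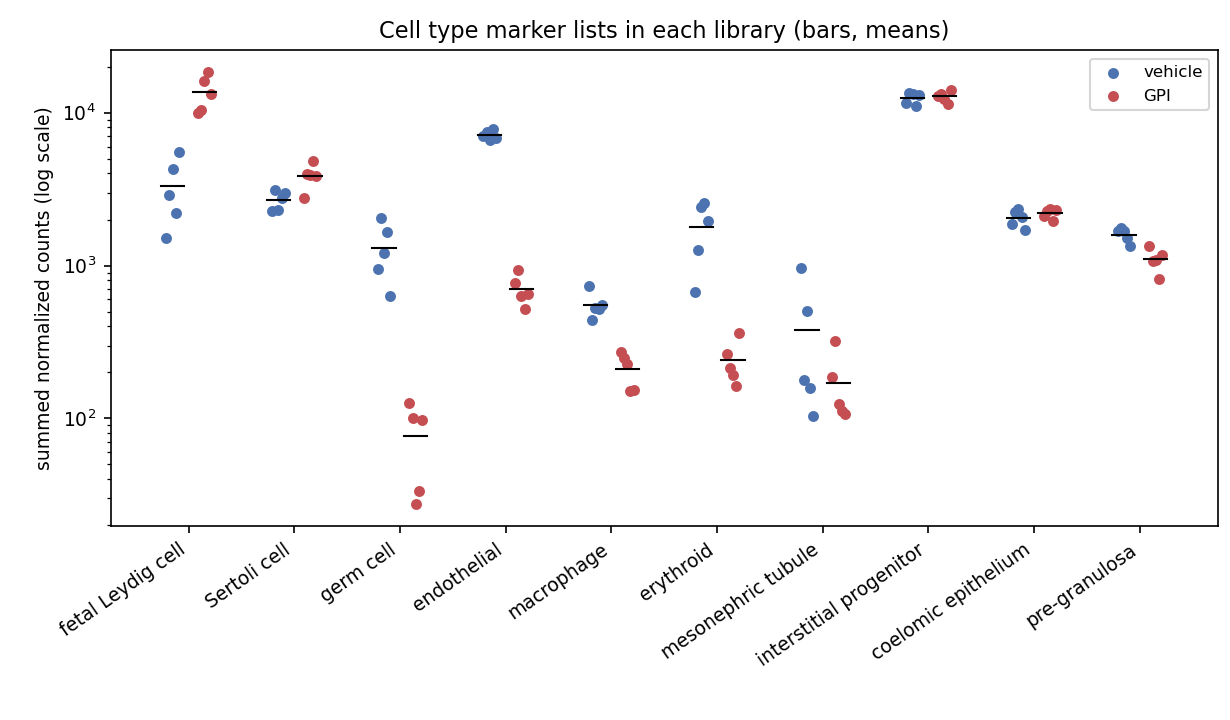
Summed normalized counts (vertical axis, log scale) of 10 cell type marker lists in each library, vehicle in blue and GPI in red (5 mice per group; bars, means). Fetal Leydig cell markers are higher in every GPI gonad, germ cell, endothelial, macrophage and erythroid markers are lower in every GPI gonad, and interstitial progenitor and coelomic epithelium markers overlap.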

How the data were processed

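RNA of 10 cultured testes (5 mice, 1 GPI and 1 vehicle gonad each) had been made into amplified libraries without molecular identifiers, so a count is not a molecule and the spread between mice sets the precision. Raw counts per RefSeq gene were deposited: the authors ran STAR 2.5 on mm10 and then featureCounts of Subread 1.5.0-p1, unstranded. Pairs mapping to several places are left out by the default of that program. All 10 columns were used and 0 others were found.

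The tests ran on all 24470 entries: filterByExpr (minimum count 10, total 15) set aside 10529, libraries were scaled by TMM, and edgeR's quasi-likelihood test with mouse and treatment in the design gave Benjamini-Hochberg adjusted p-values over 13941 genes, called at 0.05. Each standard error is the size of the log2 fold change over the root of its F statistic. Direction in single mice used a prior count of 2. The pairing comes from the labels, which name the animal of each gonad; deviations from the group mean correlated at 0.06 within a mouse (-0.0398 to 0.155) and -0.0147 between mice (exact one-sided permutation p = 0.05, 120 pairings).

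Members one by one in the text are those called, the 10 single genes and those with a mean of at least 500 normalized counts. Of each pathway list, the first 2 genes and the 3 with the smallest p are given. Values of Abcc4, Gstm3, Gstm4, Gstm5, Gsto2, Mgst3, Taldo1 and Tkt were added after they were seen. Members and lists were chosen with earlier results of these data known. Shared windows, coding identity (aligned with Biopython 1.88) and lengths come from GENCODE M21; promoters are RefSeq's. Alternatives were DESeq2, limma-voom, the design without mouse, scaling by size factors of DESeq2 or by total counts, no filter, at least 10 counts in every library, each mouse left out, and near-identical entries summed. The code was tested on simulated data. Tools were edgeR 4.0.16, DESeq2 1.42.0 and limma 3.58.1 in R 4.3.3, and Python 3.11.15.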

Additional observations from a re-analysis of the deposited data

Results flagged for a closer look

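Among 70 groups of 5 libraries (35 tested members, 2 treatments), 5 had 1 library far from the other 4; chance alone gives about 1 in 20 such groups. In 3 of them it was the GPI gonad of M1. Gclc stood there at 439.9 normalized counts, with the next highest GPI gonad at 357.5. For Hmox1 it was 477.9, beside 274.8 for the next. For Gpx4 it was 100.7, beside 66.6 for the next, and Gpx4 shares sequence with a pseudogene. The vehicle gonad of M2 had the low Gpx1 value of 502.4, while the next lowest had 951.2. Gstm3 had 93.6 normalized counts in the vehicle gonad of M4, beside 24.6 for the next.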

How the results depend on the processing

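Each of the 12 calls kept its direction in every alternative in which the gene was tested, and 8 (Gsta2, Gsta4, Gstm1, Gstm2, Gstm6, Gstm7, Mgst1 and Gclc) stayed called in all of them. The number of members called higher was 12 with DESeq2, DESeq2 size factors, total counts only and near-identical entries summed (chosen after seeing the data), and 13 with limma-voom, no filter and at least 10 counts in every library. Without the mouse block it was 13: Gsta3 was lost and Gstm4 and Gsto2 gained; pairing changed no other call among the members. With each mouse left out it ran from 8 to 14, and the number lower from 0 to 1 (Gpx1 without M2). All genes called ran from 2311 to 3082 in those fits. The correlation by mouse had p = 0.258 without the filter and 0.075 with at least 10 counts in every library (exact permutation test); the cause was not tested.

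Members whose sign turned were not called, and the cause was not tested. Under total counts only, Gss had a log2 fold change of -0.041 and Gstm5 -0.033. With limma-voom, Gstm3 had -0.114 and Gsto1 0.020; without the mouse block they had -0.196 and 0.031. With single mice left out, log2 fold changes ran from -0.159 to 0.099 for Gclm, -0.138 to 0.050 for Gpx8, -0.136 to 0.165 for Gss, -0.125 to 0.900 for Gstm3, -0.114 to 0.135 for Gstm5, -0.215 to 0.101 for Gsto1 and -0.267 to 0.045 for Mgst3. Summing by protein identity was not run, since no protein table was at hand.

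These are RNA levels of whole gonads from 5 embryos, after 1 dose and 1 time, so that cell loss, cell gain and RNA per cell cannot be separated from these counts alone, and they hold no measure of protein or glutathione. For germ cells the study reports a direct count, with fewer in treated testes, which is not among the files used here. Markers of several cell types differed between the groups together with the transferases, and no test here divides their parts. The pathway and marker lists were not run with mice other than M1 left out. Low counts limit Gstt2, Gstt3, Gsto2 and Nqo1, and shared sequence limits Gsta2, Gstp1, Gpx4 and Gstt3. Calls of Gsta3, Gstt2, Gstt3 and Keap1 were each lost when at least 1 particular mouse was left out.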
